A study of Caenorhabditis elegans with 4 samples.

Results

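The genes described here were the transthyretin-related ttr genes of Caenorhabditis elegans, taken as every row of the deposited table whose gene name is ttr followed by a number. There were 58 of them among 46766 genes. The study asked how gene expression of aged wild-type worms changed with Gengnianchun (GNC), a Chinese herbal formula. GNC-treated worms received 3.94 mg/mL GNC in S-complete liquid medium, and control worms received water as the vehicle. All worms were of the N2 wild-type strain, were kept in that medium with E. coli OP50 as food and were 22 days old. Total RNA of whole worms was sequenced in 2 libraries for each group.

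Transthyretin is a small protein that carries thyroid hormone and retinol-binding protein in the blood of vertebrates. Nematodes have a large family of small, mostly secreted proteins that share its fold and have spread by gene duplication. A few have a described role. TTR-52 bridges phosphatidylserine on the surface of dying cells to the engulfment receptor CED-1, TTR-11 also binds phosphatidylserine and acts in the regrowth of cut axons, and TTR-33 protects dopaminergic neurons from oxidative damage.

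The family was compact. All 58 members were protein coding, and the median protein had 143 residues, against 329 for all 19985 protein-coding genes of the annotation. Of the members, 53 (91.4%) coded for 120 to 200 residues, a length range that held 14.6% of all coding genes. The median gene had 3 exons, against 5 for all coding genes. The exceptions in length were ttr-57 with 89 residues, ttr-11 with 110 and ttr-56 with 114 at the short end, and ttr-50 with 213 and ttr-14 with 406 at the long end. Chromosome V carried 22 members (37.9%, against 24.99% of all coding genes) and chromosome X 12 (20.7%, against 13.7%), with 10 on IV, 9 on III, 3 on I and 2 on II. As many as 29 members lay within 10 kb of another member, in 7 pairs and 5 groups of 3. Exons of 17 members overlapped those of another coding gene, on the opposite strand in 13 of them. The use of strand in counting was not given in the sources used here, so reads from such overlaps cannot be told apart. How reads that fit more than 1 member were counted was not given either.

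The libraries held 21753657 and 20138896 counts for GNC-treated worms, against 18639631 and 20088353 for control worms. Nothing in the labels says that the 2 libraries of a group came from separate cultures, so the p-values measure only the spread between these libraries, which may be technical. The biological coefficient of variation over all genes was 6.67%. Whole worms hold every tissue, and markers of sperm, oocytes, intestine, neurons, muscle, pharynx and hypodermis were all detected. In whole worms, fewer cells of a type and less RNA per cell cannot be told apart.

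The ttr genes took 0.745% and 0.634% of all counts in GNC-treated worms, against 0.691% and 0.666% in control worms. The groups overlapped, and this share did not separate GNC-treated worms from control worms. In FPKM, the deposited measure that divides counts by gene length and library total, the members spanned a range of 1.18e4-fold. The mean level was 100 FPKM or more for 12 members, between 10 and 100 FPKM for 28, between 1 and 10 FPKM for 14, and under 1 FPKM for 4. The median member stood at 30.6 FPKM.

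**Figure D1:**
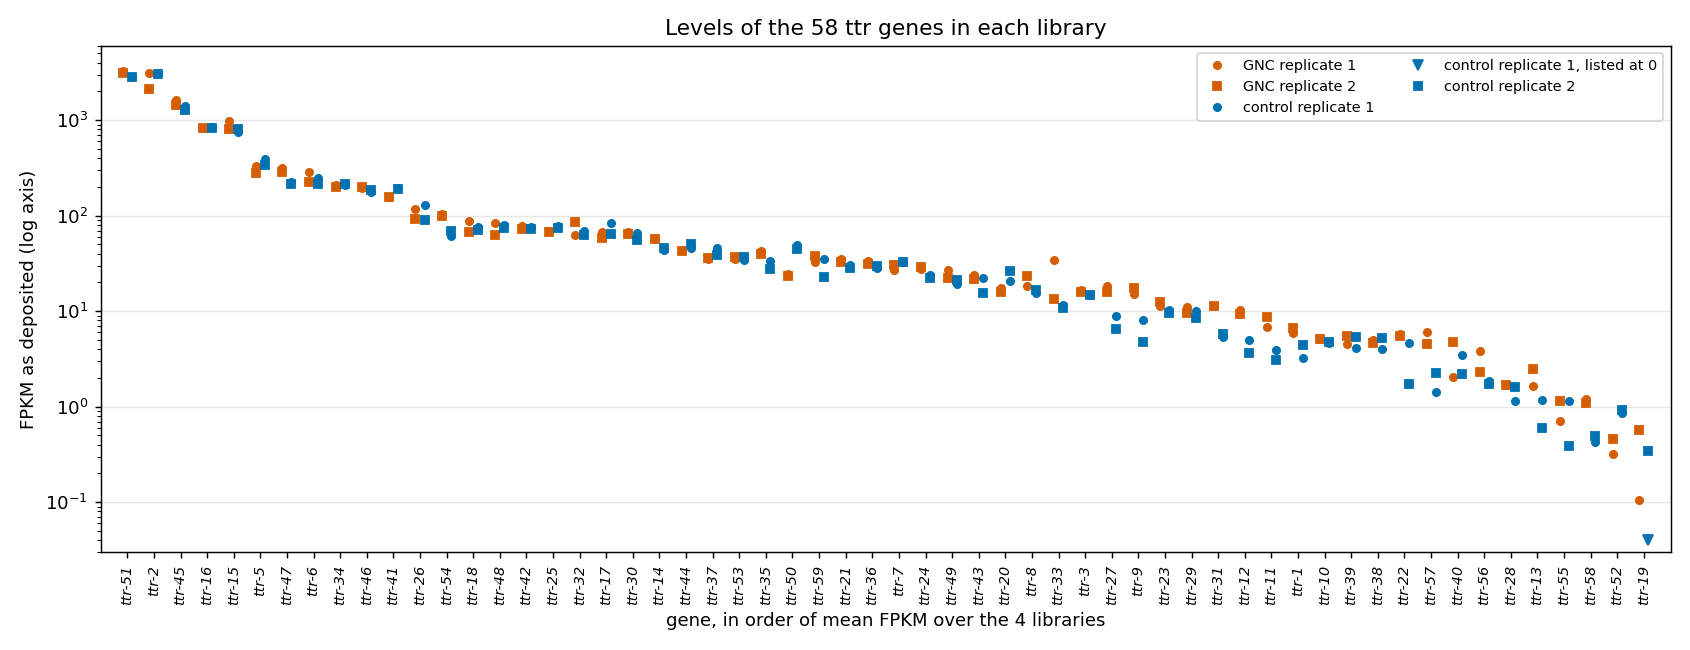
FPKM of each of the 58 ttr genes (log axis) in the 2 GNC libraries (orange) and the 2 control libraries (blue), ordered by mean level. Circles are replicate 1 and squares replicate 2, and the triangle marks ttr-19, listed at 0 in control replicate 1. The levels fall over 1.18e4-fold along the axis, and most differences between the groups are small beside that range.

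A handful of members carried most of the family's RNA. The highest was ttr-51, with 3207 ± 94.1 FPKM in GNC-treated worms and 2816 ± 9.96 FPKM in control worms (SD, n = 2 each), rank 9 among all genes of the table. Next came ttr-2, at rank 13, with 2607 ± 698.5 FPKM in GNC-treated worms and 3084 ± 70.7 FPKM in control worms. The order of these 2 genes differed between the groups, and in GNC-treated worms they differed by less than the spread of ttr-2. The third was ttr-45, which lies beside ttr-51 on chromosome IV, with 1525 ± 121 FPKM in GNC-treated worms and 1338 ± 92.1 FPKM in control worms. Below these, ttr-15 stood at 900 ± 131 FPKM in GNC-treated worms and 776 ± 40.8 FPKM in control worms, and ttr-16 at 833 ± 9.09 FPKM in GNC-treated worms and 844 ± 18.8 FPKM in control worms. In GNC-treated worms the libraries of ttr-15 and ttr-16 overlapped, while in control worms ttr-16 was the higher in both libraries. Together ttr-2, ttr-51 and ttr-45 held 60.2% and 57.7% of all ttr counts in GNC-treated worms, against 60.6% and 61.0% in control worms.

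None of these 5 abundant genes passed the test between the groups, which for all members was edgeR's quasi-likelihood test on the counts with Benjamini-Hochberg adjustment (false discovery rate, FDR) over the 16341 genes tested. Values per library are given from here on as normalised counts (CPM), which are counts scaled to the library size by the TMM method and carry no correction for gene length. For ttr-51 these were 1527 and 1467 CPM in GNC-treated worms, against 1392 and 1430 CPM in control worms. Its groups did not overlap, yet the log2 fold change (GNC over control) was only 0.09 ± 0.07 (SE), with an FDR of 0.366. For ttr-2 there were 2066 and 1410 CPM in GNC-treated worms, against 2218 and 2196 CPM in control worms. The second GNC library stood apart from the other 3, and the log2 fold change of -0.34 ± 0.14 had an FDR of 0.0823. Without GNC replicate 1, ttr-2 was at -0.65, and without GNC replicate 2 at -0.10, so that the estimate changed with the GNC library left out. Every fit with 1 library left out, here and below, sets 1 library against 2. Its FDR rests on the spread of the group with 2 libraries alone and leaves out the spread within the other group. For ttr-16, 434 and 428 CPM in GNC-treated worms stood against 471 and 467 CPM in control worms, a log2 fold change of -0.12 with an FDR of 0.137. For ttr-45 and ttr-15 the groups overlapped, and the log2 fold changes were 0.09 (FDR 0.398) for ttr-45 and 0.11 (FDR 0.389) for ttr-15. Without GNC replicate 2, ttr-15 was at 0.25. The scaling moved the calls of some of these genes. Offsets that depended on the expression level put ttr-51 at 0.26 (FDR 0.0075) and ttr-45 at 0.24 (FDR 0.0353). An equal median log2 CPM in every library put them at -0.046 and -0.044. That scaling called ttr-16 lower at -0.25 (FDR 0.0076) and ttr-2 lower at -0.48 (FDR 0.0171). Library totals alone put ttr-51 at 0.19 (FDR 0.0473).

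The normalised counts summed over all members were 7193 and 6130 CPM in GNC-treated worms, against 7087 and 6987 CPM in control worms, a log2 ratio of -0.08. Without ttr-2, ttr-51 and ttr-45, the sums were 2862 and 2592 CPM in GNC-treated worms, against 2793 and 2728 CPM in control worms, a log2 ratio of -0.02. In both cases the ranges overlapped, and the family's total did not differ beyond the spread between libraries.

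Single members did change, in both directions. Of the 58, 56 passed the filter on low counts and were tested. At an FDR under 0.05 and at least 2-fold, 6 members were higher in GNC-treated worms (10.7% of those tested, against 4.97% of all genes tested) and 1 was lower (1.79%, against 2.23% of all genes tested). Without the fold threshold, 11 were higher (19.6%, against 19.8% of all genes) and 9 were lower (16.1%, against 20.5% of all genes). The libraries of the groups did not overlap for 21 members that were higher (37.5%, against 36.5% of all genes) and 13 that were lower (23.2%, against 34.5% of all genes). Taking both directions, 35.7% of the members tested passed an FDR of 0.05, against 40.4% of all genes tested. The median log2 fold change of the members was 0.09, against 0.02 over all genes tested, and 37 of 56 estimates were above 0 (66.1%, against 51.9% of all genes). When the scaling was changed so that every library had the same median log2 CPM, the median of the members was -0.045 and that of all genes -0.11, and 9 members were higher and 14 lower at an FDR under 0.05 (16.1% and 25%, against 14.1% and 31.5% of all genes). With library totals as the only scaling, 15 were higher and 3 lower (26.8% and 5.36%, against 26.6% and 13% of all genes), and with upper quartile scaling 13 were higher and 4 lower (23.2% and 7.14%, against 24.7% and 14.6% of all genes). The balance of higher and lower genes moved with the scaling for all genes and the members alike.

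**Figure D2:**
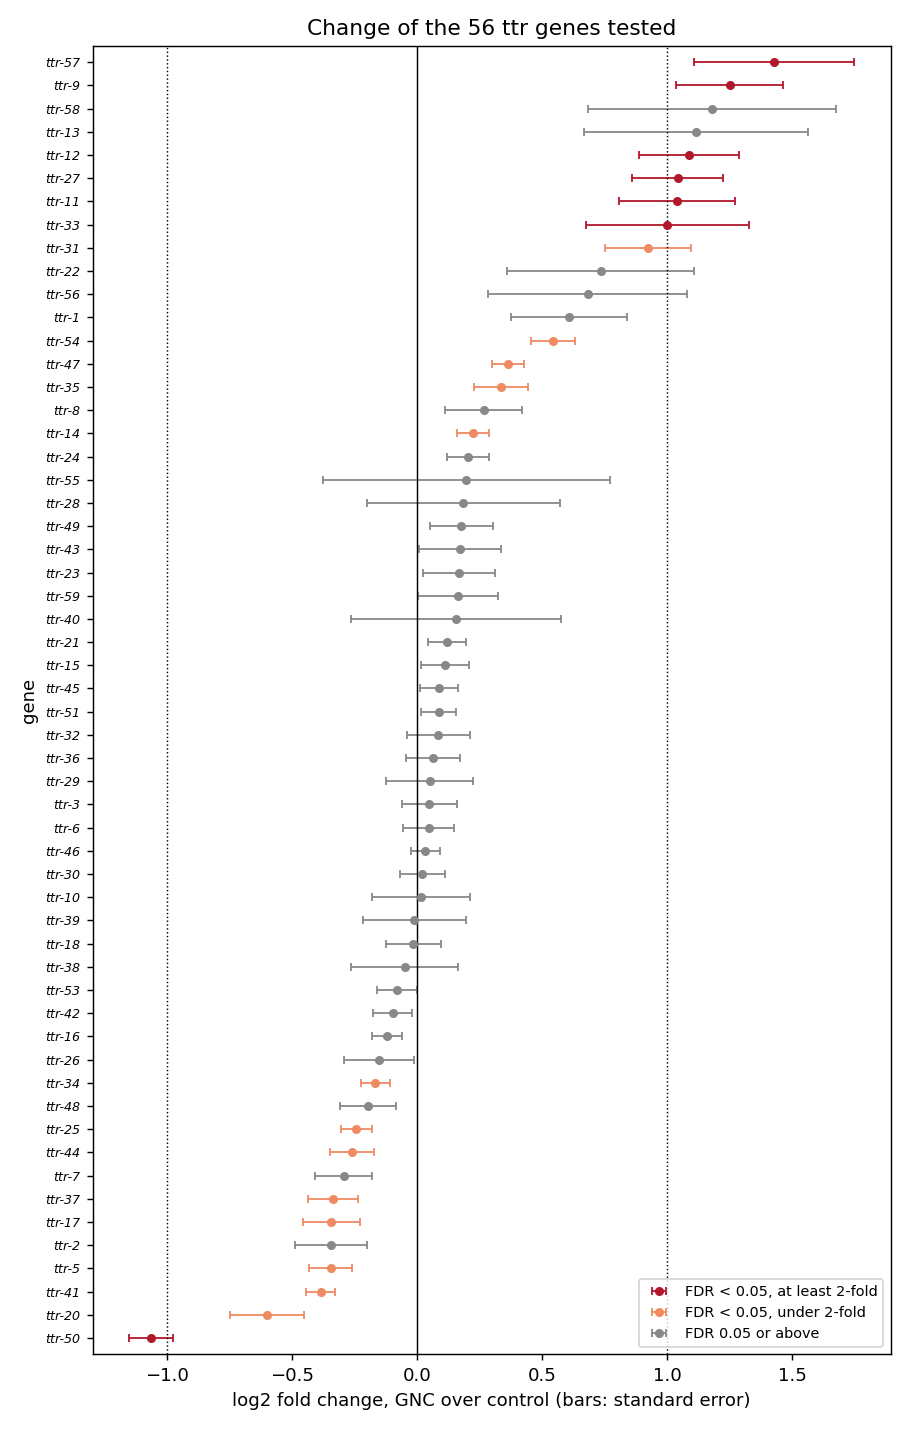
Log2 fold change (GNC over control) of the 56 ttr genes tested, with bars of 1 standard error, from edgeR. Dark red marks the 7 genes past an FDR of 0.05 and 2-fold (dotted lines), orange those past the FDR alone, and grey the 36 past neither. The estimates run between -1.07 for ttr-50 and 1.43 for ttr-57.

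The largest rise was that of ttr-57, the member with the shortest protein. It had 2.89 and 2.16 CPM in GNC-treated worms, against 0.715 and 1.1485 CPM in control worms. The groups did not overlap, and the log2 fold change was 1.43 ± 0.32 with an FDR of 0.0060. The values rest on few reads, 65 and 45 in the GNC libraries against 13 and 22 in the control libraries. Without GNC replicate 1 the estimate was 1.201 with an FDR of 0.0505, just outside the threshold.

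Near ttr-57 on chromosome V lie ttr-11, the next coding gene, and ttr-12, with another coding gene between, and both rose as well. The phosphatidylserine-binding member ttr-11 had 3.77 and 4.85 CPM in GNC-treated worms, against 2.31 and 1.88 CPM in control worms, a log2 fold change of 1.04 ± 0.23 with an FDR of 0.0059. For ttr-12 there were 6.21 and 5.76 CPM in GNC-treated worms, against 3.25 and 2.40 CPM in control worms, a log2 fold change of 1.09 ± 0.20 with an FDR of 0.0022. All GNC values lay above all control values in each of the 3 genes. The genes occupy 5.16 kb between positions 20603366 and 20608520 of chromosome V in the deposited coordinates (build WBcel235), with ttr-11 and ttr-57 on the plus strand and ttr-12 on the minus strand. Their summed level was 12.9 and 12.8 CPM in GNC-treated worms, against 6.27 and 5.43 CPM in control worms, a log2 ratio of 1.13. No other group of neighbouring members had all of its genes past the FDR threshold. A further member of the same chromosome, ttr-13, had 0.799 and 1.2004 CPM in GNC-treated worms, against 0.605 and 0.313 CPM in control worms, and at a log2 fold change of 1.11 ± 0.45 its FDR was 0.0740.

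**Figure D3:**
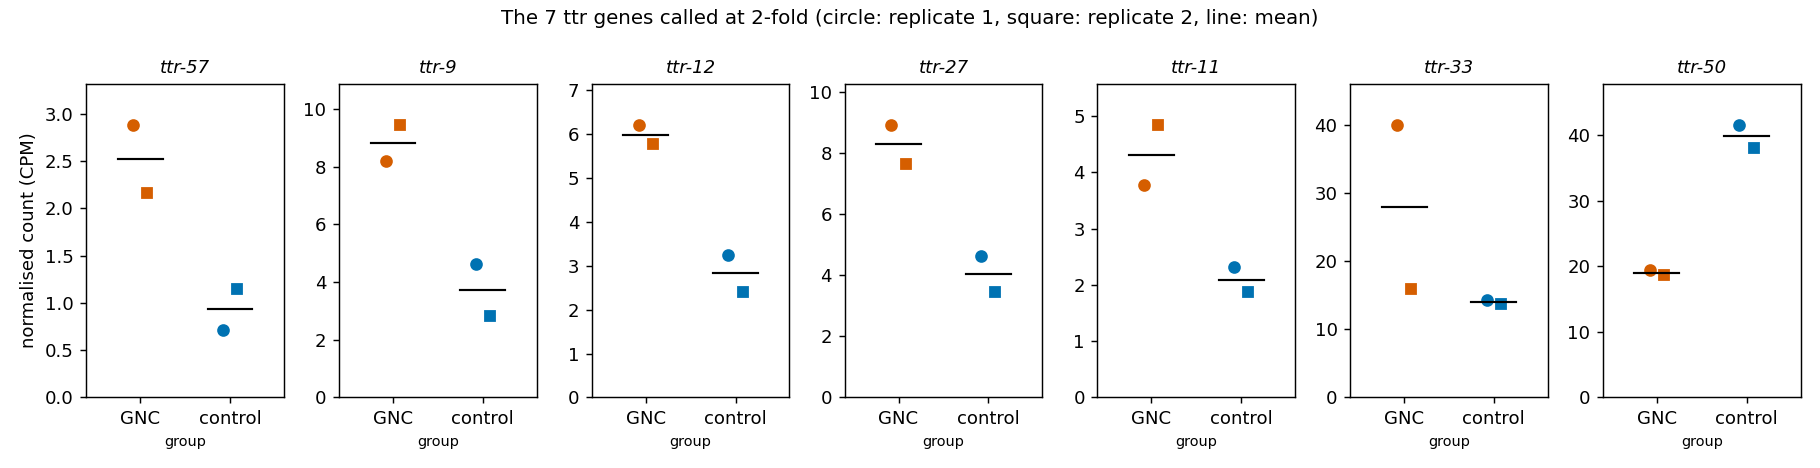
Normalised counts (CPM, each axis starting at 0) of the 7 ttr genes past an FDR of 0.05 and 2-fold, for GNC (orange) and control (blue). Circles are replicate 1, squares replicate 2 and lines the group mean. The groups are apart in all 7 genes, but for ttr-33 the second GNC library (15.8 CPM) lies close to the control libraries (14.3 and 13.7 CPM).

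The other rises of at least 2-fold were in ttr-9, ttr-27 and ttr-33. For ttr-9, on chromosome IV, there were 8.21 and 9.46 CPM in GNC-treated worms, against 4.62 and 2.82 CPM in control worms. Every GNC library was above every control library, and the log2 fold change was 1.25 ± 0.21 with an FDR of 0.0015. For ttr-27 there were 8.92 and 7.63 CPM in GNC-treated worms, against 4.62 and 3.45 CPM in control worms. Here too the groups did not overlap, and the log2 fold change was 1.04 ± 0.18 with an FDR of 0.0017.

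The gene of oxidative damage protection, ttr-33, passed both thresholds by a single library. It had 40.04 and 15.8 CPM in GNC-treated worms, against 14.3 and 13.7 CPM in control worms. GNC replicate 1 was 2.53 times as high as GNC replicate 2, while the 2 control libraries were alike. The log2 fold change was 1.001 ± 0.33 with an FDR of 0.0343. Without GNC replicate 1 the estimate was 0.18 with an FDR of 0.417, and DESeq2 gave an FDR of 0.261 with all libraries. The gene lies inside mig-6, which is on the opposite strand, and shares 42 exon bases with txt-5 on the same strand. For mig-6 the log2 fold change was 0.31 (FDR 0.0153) and for txt-5 0.44 (FDR 0.0341). The length implied by the deposited FPKM of ttr-33 was 1207 bases, more than the 848 bases between its deposited start and end, so what was counted as ttr-33 is uncertain. The same holds for ttr-59, with 1292 bases implied against 823 deposited.

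The 6 calls of a rise were close to the thresholds. Without control replicate 2, only ttr-57 was still called higher, since ttr-9 was at 0.93, ttr-11 at 0.89, ttr-12 at 0.88 and ttr-27 at 0.84, all under 2-fold with an FDR of 0.0247 or lower, and ttr-33 was at 0.97 with an FDR of 0.0621. Without GNC replicate 1, 3 members were called higher, namely ttr-9, ttr-11 and ttr-12, with ttr-27 at 0.92. Without GNC replicate 2, 5 were called higher, with ttr-11 at 0.85. Without control replicate 1 all 6 were called, and ttr-22 with them at 1.595. A test against a 2-fold change itself, in place of no change, called no member in either direction.

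The single fall of at least 2-fold was in ttr-50. It had 19.4 and 18.6 CPM in GNC-treated worms, against 41.7 and 38.1 CPM in control worms. The libraries of each group lay close together and the groups were far apart. The log2 fold change was -1.07 ± 0.09, with an FDR of 3.59e-05, the lowest of the family. It shares 51 exon bases with rbm-17 on the opposite strand, whose log2 fold change was -0.20 with an FDR of 0.168. Without control replicate 1 the estimate for ttr-50 was -0.9985, just under 2-fold.

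**Figure D4:**
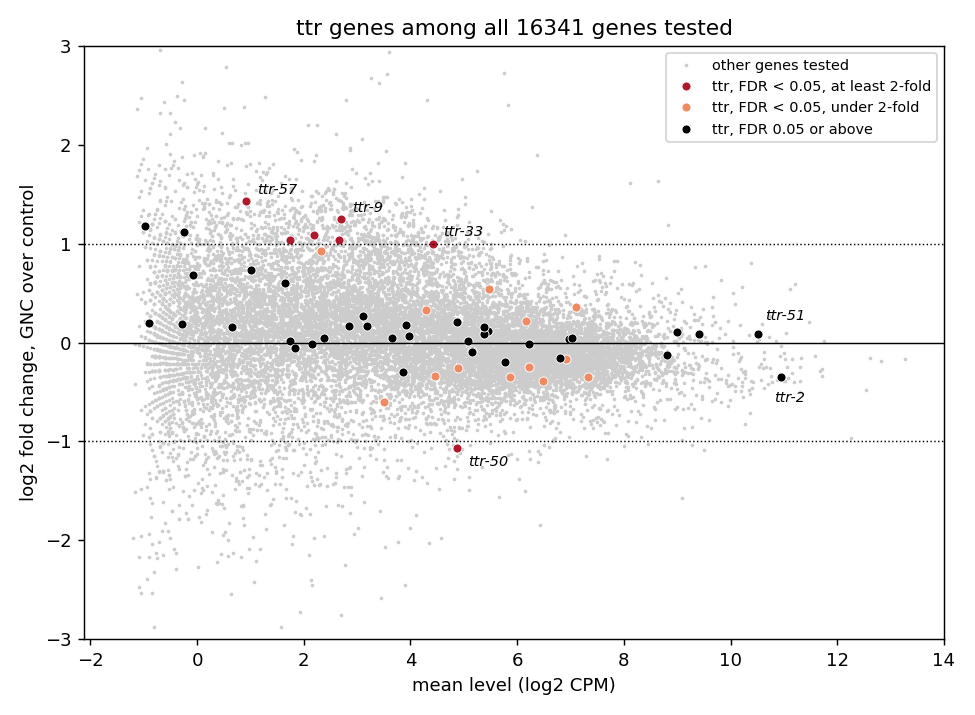
Log2 fold change (GNC over control) against mean level (log2 CPM) for the 16341 genes tested, with the ttr genes in dark red (FDR under 0.05 and at least 2-fold), orange (FDR under 0.05) and black (neither), and 17 other genes outside the plotted range. Most of the ttr genes called higher are lowly expressed, ttr-50 stands alone below the lower dotted line among the ttr genes, and the abundant ttr-51 and ttr-2 lie near 0.

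Smaller changes passed the FDR threshold in 13 further members. Of those that rose, ttr-31 was nearest to 2-fold, with 6.26 and 6.34 CPM in GNC-treated worms, against 3.19 and 3.45 CPM in control worms, a log2 fold change of 0.92 ± 0.17 and an FDR of 0.0023. Its replicates were closely alike. The others that rose were ttr-54 (0.54), ttr-47 (0.36), ttr-35 (0.33) and ttr-14 (0.22), all on the log2 scale. Of those that fell, ttr-20 had 9.54 and 8.55 CPM in GNC-treated worms, against 11.9 and 15.5 CPM in control worms, a log2 fold change of -0.60 ± 0.15 with an FDR of 0.0096. The next was ttr-41, with 77.3 and 77.9 CPM in GNC-treated worms, against 102 and 101 CPM in control worms, a log2 fold change of -0.39 ± 0.06 with an FDR of 0.00063. Its libraries were closely alike within each group. Also lower were ttr-5 at -0.35 (FDR 0.0105), ttr-17 at -0.34 (FDR 0.0372), ttr-37 at -0.34, ttr-44 at -0.26, ttr-25 at -0.24 and ttr-34 at -0.17. Exons of ttr-47 and ttr-14 overlap opposite-strand genes that also rose, H14N18.4 at 0.42 (FDR 0.0062) beside ttr-47 and vap-2 at 0.56 (FDR 0.0018) beside ttr-14.

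Several of these small changes lost the call at an FDR under 0.05 when 1 library was left out. As above, such fits set 1 library against 2. For ttr-17 the FDR was 0.0965 without GNC replicate 2 and 0.281 without control replicate 1. For ttr-35 it was 0.135 without GNC replicate 1 and 0.150 without control replicate 2, and for ttr-37 it was 0.0858 without GNC replicate 1 and 0.110 without control replicate 1. For ttr-34 it was 0.253 without GNC replicate 2 and 0.140 without control replicate 2, and for ttr-25 it was 0.0508 without control replicate 1. The calls of ttr-14 and ttr-44 were lost without any 1 of 3 libraries. For ttr-14 these were GNC replicate 1 (FDR 0.0718), GNC replicate 2 (0.0560) and control replicate 1 (0.101). For ttr-44 they were GNC replicate 1 (FDR 0.107), GNC replicate 2 (0.131) and control replicate 2 (0.168). The calls of ttr-31, ttr-54, ttr-47, ttr-20, ttr-41 and ttr-5 were kept without any 1 library. The test and the scaling mattered too. With DESeq2 on all 4 libraries, ttr-14, ttr-34, ttr-35, ttr-37 and ttr-44 were not past an FDR of 0.05. DESeq2 had 8 members higher and 6 lower (14.3% and 10.7%, against 13.2% and 15.4% of all genes). With library totals, ttr-5, ttr-17, ttr-25, ttr-34, ttr-37 and ttr-44 lost the call of a fall, and ttr-20 lost it in both limma fits. Of the rises, ttr-14 and ttr-35 lost the call with equal median log2 CPM.

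The changes were also set out by the level of the gene, with no test between the classes. Of the 16 members tested with a mean under 10 FPKM, 4 were higher and 0 lower at an FDR under 0.05, and their median log2 fold change was 0.64. Among the 7656 genes tested in that range, 20.3% were higher and 7.65% lower, with a median of 0.18. Of the 19 members between 10 and 50 FPKM, 4 were higher and 4 lower, with a median of 0.16, against 23.4% higher and 24.3% lower and a median of -0.02 among all genes at that level. Of the 21 members at 50 FPKM or more, 3 were higher and 5 lower, with a median of -0.02, against 11.3% higher and 46.8% lower and a median of -0.17 among all genes at that level. With offsets that depended on the expression level, 11 members were higher and 6 lower at an FDR under 0.05 (19.6% and 10.7%, against 18% and 18.1% of all genes). At 2-fold, ttr-9 and ttr-57 were then called higher and ttr-50 lower (3.57% and 1.79%, against 2.95% and 3.11% of all genes).

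The log2 fold changes within the 12 groups of neighbouring members spanned between 0.0018 and 0.99, and the differences between neighbours were not tested. In the group on chromosome V that holds ttr-27, the neighbours ttr-28 and ttr-29 had log2 fold changes of 0.18 (FDR 0.738) and 0.05 (FDR 0.850), against 1.04 for ttr-27. On chromosome III, ttr-3, ttr-2 and ttr-1 lie within 4.90 kb, yet their mean FPKM spanned 558-fold, and their log2 fold changes were 0.05, -0.34 and 0.61, none past the threshold. For ttr-1 there were 3.42 and 3.84 CPM in GNC-treated worms, against 1.98 and 2.77 CPM in control worms, with an FDR of 0.0625. On the distal part of chromosome V, ttr-24, ttr-25 and ttr-26 were at 0.20, -0.24 and -0.15, and only ttr-25 passed (FDR 0.01003). On chromosome I, ttr-55, ttr-56 and ttr-58 had few reads and log2 fold changes of 0.20, 0.68 and 1.18. The last of these had 0.577 and 0.528 CPM in GNC-treated worms, against 0.220 and 0.261 CPM in control worms, with an FDR of 0.0859. Of the 7 pairs, ttr-51 and ttr-45 were both at 0.09, a span of 0.0018. The span was 0.021 for ttr-40 and ttr-49, 0.14 for ttr-59 and ttr-30, 0.18 for ttr-8 and ttr-32, 0.22 for ttr-16 and ttr-17, 0.27 for ttr-36 and ttr-35 and 0.62 for ttr-54 and ttr-53.

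**Figure D5:**
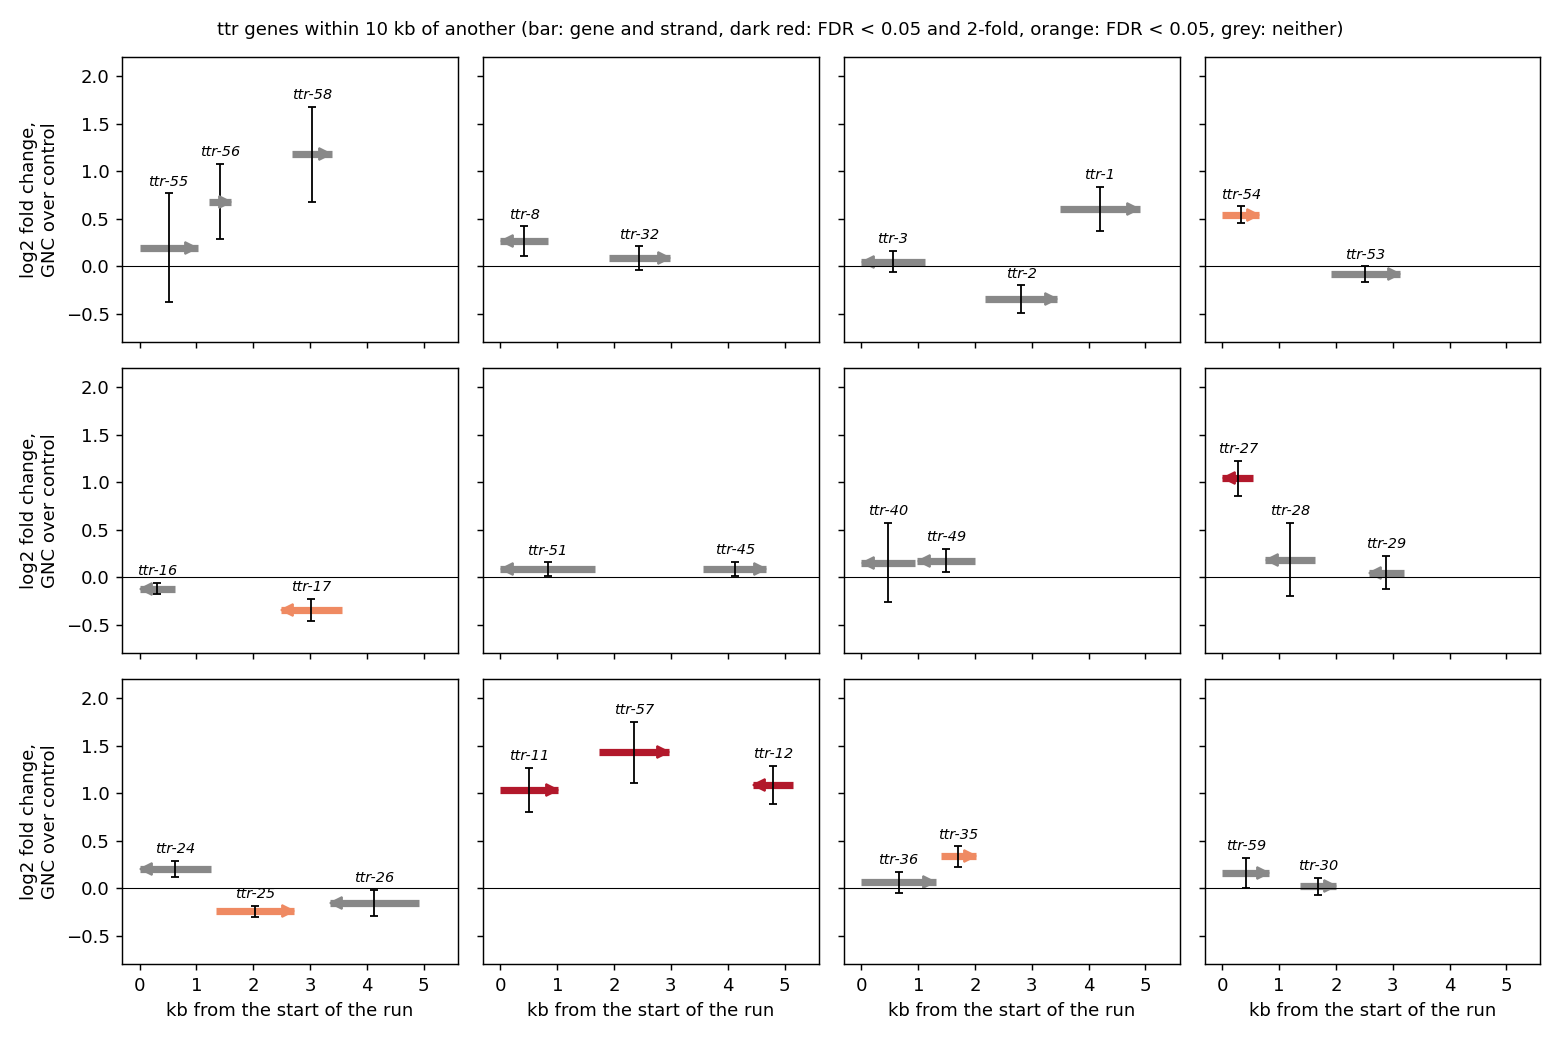
The 12 groups of ttr genes that lie within 10 kb of each other. Each bar is a gene drawn to scale by its distance in kb from the start of its group, with the arrow head for its strand, at the height of its log2 fold change (GNC over control), and the thin line is 1 standard error. Dark red marks an FDR under 0.05 and at least 2-fold, orange an FDR under 0.05 and grey neither. Only ttr-11, ttr-57 and ttr-12 are dark red together, and neighbours differ by up to 0.99 in the group of ttr-27.

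The 2 members left untested by the filter were ttr-52 and ttr-19. The bridging gene ttr-52 had 3 and 4 counts in GNC-treated worms, against 7 and 8 counts in control worms, or 0.133 and 0.192 CPM against 0.385 and 0.418 CPM. The GNC values were the lower ones and the groups did not overlap. A fit without the filter gave an FDR of 0.179. That fit kept only 2 of the 11 members called higher at an FDR under 0.05 and 2 of the 9 called lower. Of all genes, it had 5.31% higher and 3.52% lower. It also lost abundant members such as ttr-5 and ttr-47, so it cannot show whether depth hid a difference in ttr-52. For ttr-19 there were 1 and 5 counts in GNC-treated worms, against 0 and 3 counts in control worms, with overlapping groups.

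Genes of the clearance of dying cells were examined beside ttr-52, whether or not they act with its product. Of 19 genes of engulfment and phosphatidylserine exposure, all tested, 4 were higher and 3 lower in GNC-treated worms at an FDR under 0.05, where 19.8% of all genes were higher and 20.5% lower, and none was past 2-fold. These counts were near the shares over all genes. Their median log2 fold change was 0.07, against 0.02 over all genes. The largest change was in nrf-5, whose secreted product transfers phosphatidylserine together with CED-7 and TTR-52. It had 239.8 and 239.5 CPM in GNC-treated worms, against 121.3 and 139.8 CPM in control worms, a log2 fold change of 0.88 ± 0.07 with an FDR of 3.53e-05. The groups were far apart. The engulfment receptor ced-1 was at 0.12 (FDR 0.119), its adaptor ced-6 rose by 0.34 (FDR 0.0098), and the transporter ced-7 was at 0.00 (FDR 0.960). The phosphatidylserine receptor psr-1 was at -0.10 (FDR 0.196) and the flippase tat-1, which keeps phosphatidylserine on the inner leaflet, at 0.08 (FDR 0.310). The others that passed were ina-1 (0.34) and ced-5 (0.21), which were higher, and ced-2 (-0.49), wah-1 (-0.20) and ced-10 (-0.18), which were lower. Of a pair of further genes with a transthyretin-like protein, R09H10.3 was lower, with 6.13 and 5.09 CPM in GNC-treated worms, against 8.31 and 8.82 CPM in control worms, a log2 fold change of -0.61 with an FDR of 0.0106. The second, ZK697.8, had 0 to 3 counts per library and was not tested.

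Markers of several tissues moved with the treatment, and their part in the ttr results was not tested. Over all genes tested, 19.8% were higher and 20.5% lower at an FDR under 0.05. All 12 oocyte markers were lower at an FDR under 0.05. Their summed level was 1762 and 1810 CPM in GNC-treated worms, against 3160 and 3296 CPM in control worms. Of 10 embryo markers tested, 4 were lower, namely pos-1, mex-1, mex-5 and pal-1. The others, among them end-1, end-3, tbx-37 and tbx-38, did not pass. The embryo markers summed to 845 and 923 CPM in GNC-treated worms, against 1206 and 1298 CPM in control worms. Of these sums, mex-5 gave 413 and 452 CPM, against 555 and 598 CPM, and pos-1 gave 206 and 229 CPM, against 371 and 386 CPM. Of 34 sperm markers tested, 10 were higher and 1 lower, with sums of 794 and 813 CPM in GNC-treated worms, against 647 and 637 CPM in control worms. Of 8 pharynx markers tested, 6 were higher, with sums of 657 and 709 CPM in GNC-treated worms, against 490 and 507 CPM in control worms. Of 9 intestine markers 2 were higher and 4 lower (1837 and 1793 CPM, against 2099 and 2328 CPM), and 1 of 10 neuron markers was higher. Of 8 body wall muscle markers 3 were higher and 1 lower, and of 5 adult hypodermis markers tested 1 was higher and 2 lower. Among 11 larval cuticle and moulting markers tested 3 were lower, and among 8 glia and coelomocyte markers 2 were higher. No marker was at 0 in all 4 libraries.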

How the data were processed

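Per the submitters' processing notes, CASAVA 1.8, TopHat2 2.1.0 and Cuffdiff were used with build WBcel235. The authors deposited raw counts per gene and FPKM. In the 10376 genes with at least 100 counts per library, the deposited FPKM equalled the count divided by 1 gene length and the library total within 1%. Protein lengths, exons and overlaps came from a WBcel235 annotation, which matched all 58 members by identifier, 4 of them with identical positions. The counting tool's strand setting was not given in the sources used here.

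The counts were scaled by TMM, filtered with filterByExpr and tested in edgeR 4.0.16 (R 4.3.3) with the quasi-likelihood F-test, treatment being the only term, over all genes. The procedure was tested on simulated data in which few genes changed, all by more than 2-fold. That test does not cover calls near 2-fold or data in which many genes change. Members and lists were chosen with earlier results of these data known. The genes named were the members past both thresholds, the 5 largest rises and falls past the FDR, the 5 most abundant, ttr-52, ttr-33 and ttr-11, the groups of 3 neighbours and the untested members, and 6 fixed engulfment genes. The other genes named, such as ttr-31 and ttr-13, were picked after their values were seen. Alternatives were a replicate block, DESeq2 1.42.0, other scalings and filters, limma 3.58.1 on log2(FPKM + 0.1) and log2(FPKM + 1), a test against 2-fold, and each library left out. No sequences were used here.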

Additional observations from a re-analysis of the deposited data

How the results depend on the processing

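The median log2 fold change of the members was 0.19 with library totals as the only scaling and -0.045 with equal median log2 CPM, and 0.06 to 0.13 with 1 library left out. The number of members called higher at 2-fold was 2 with equal median log2 CPM and with expression-dependent offsets, 1 with no filter on low counts, 0 in the test against 2-fold and 1 to 7 with 1 library left out. The number called lower was 0 with upper quartile scaling, with library totals, in both limma fits and in the test against 2-fold. Of all genes, 1.82% were called lower with upper quartile scaling and 1.71% with library totals. The limma fits gave 1.46% and 1.07%, and the test against 2-fold 0.171%. At an FDR under 0.05 alone, the number higher was 2 with no filter (3.45%, against 5.31% of all genes). The number lower was 4 with upper quartile scaling (7.14%, against 14.6% of all genes) and 3 with library totals (5.36%, against 13%). It was 14 with equal median log2 CPM (25%, against 31.5%) and 2 with no filter (3.45%, against 3.52%). In both limma fits it was 2 (3.57%, against 8.33% and 8.69% of all genes). The cause of these differences was not tested. None of the 20 members past an FDR of 0.05 changed sign under any alternative run. Of the other members named by rule, those that did were, with equal median log2 CPM, ttr-15 (-0.021), ttr-29 (-0.082), ttr-3 (-0.083), ttr-45 (-0.044) and ttr-51 (-0.046), and with expression-dependent offsets ttr-16 (0.0175), ttr-29 (-0.16) and ttr-3 (-0.11). With 1 library left out, ttr-15 ran between -0.045 and 0.25, ttr-26 between -0.37 and 0.098, ttr-28 between -0.038 and 0.46, ttr-29 between -0.056 and 0.15, and ttr-55 between -0.39 and 1.13.

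The replicate numbers are shared by the groups, and same-numbered libraries deviated from their group means with a correlation of 0.04 over 15264 genes. With 2 libraries in each group this cannot show whether same-numbered libraries were handled together, and the labels do not say. With a replicate block, 5 members were called higher and 1 lower at 2-fold (8.93% and 1.79%, against 5.07% and 2.23% of all genes). At an FDR under 0.05, 12 were higher and 12 lower (21.4% each, against 21.2% and 22% of all genes). The median log2 fold change of the members was 0.09. The members gained were ttr-1 as higher (0.62, FDR 0.0413) and ttr-2 (-0.37, FDR 0.0088), ttr-7 and ttr-48 as lower, and ttr-33 was under 2-fold at 0.89.

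Depth limits the members with few counts: the standard error was 0.57 for ttr-55 and 0.50 for ttr-58, against 0.06 for ttr-41, so that smaller differences were not detectable in them.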
